A study of Mus musculus with 9 samples.

Results

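The mouse genes named Zfp800 to Zfp999 were taken as every gene whose symbol is Zfp followed by a 3-digit number that starts with 8 or 9, with a letter allowed after it. The platform annotation paired 67 such genes, of 18194 genes on the array, with 116 probe sets of their own, of 45101 probe sets in all. A probe set is a group of short probes against one transcript region, and its value here is on the log2 scale, so that a difference of 1 is a 2-fold difference in signal. The rule uses the symbol and no measured value. The arrays carried RNA of colonic mucosa from male C57BL/6 mice aged 6 weeks, with 3 arrays for each of 3 genotypes. WT mice were wild type, GasKO mice lacked both copies of the gastrin gene (Gas-/-), and hGAS mice carried the hGas transgene, in a series that asks about growth driven by progastrin, the precursor of gastrin. The labels name neither the promoter of the transgene nor the stem cells in which the gastrin gene was targeted. They do not say that the arrays of a genotype came from separate mice, so each p-value reflects only how much these samples varied, which may be technical variation. In such bulk tissue, fewer cells of a type and less RNA per cell cannot be told apart.

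Zfp is the mouse prefix for zinc finger proteins. Most genes with high numbers encode a KRAB domain followed by a row of C2H2 fingers. The fingers read DNA, often within transposable elements, and the KRAB domain recruits TRIM28, which brings the histone methyltransferase SETDB1, HP1 proteins and DNA methylation to the site. These genes multiply by tandem duplication, lie side by side in clusters and differ between species and even between mouse strains. A few members are of another kind. Zfp830 acts in pre-mRNA processing, and Zfp804a is the mouse form of a gene linked to schizophrenia. Zfp809 silences retroviruses in embryonic cells. The numbers are nomenclature, so the members are not one family by descent.

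Several members that differed between genotypes, though not Zfp991 or Zfp950, lay in one stretch of the genome, and start regions of some of its genes are shown first. Each sequence is 300 bases from RefSeq (GRCm38.p6), from 250 bases before to 50 after the annotated start, on the strand of the gene. Zfp942 (chr17:21962415-21962714, minus strand) and Zfp943 (chr17:21962309-21962608, plus strand) start head to head, and capitals mark the 194 bases that both windows contain. Probe sets of both genes were lower in GasKO mice.
Zfp942: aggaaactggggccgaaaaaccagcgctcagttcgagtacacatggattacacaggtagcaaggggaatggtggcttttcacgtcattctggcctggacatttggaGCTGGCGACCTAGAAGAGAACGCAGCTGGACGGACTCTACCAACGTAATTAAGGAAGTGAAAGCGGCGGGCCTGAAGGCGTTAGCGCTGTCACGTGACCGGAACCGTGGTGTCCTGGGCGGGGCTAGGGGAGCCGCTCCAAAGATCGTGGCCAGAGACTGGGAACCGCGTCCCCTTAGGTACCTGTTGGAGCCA
Zfp943: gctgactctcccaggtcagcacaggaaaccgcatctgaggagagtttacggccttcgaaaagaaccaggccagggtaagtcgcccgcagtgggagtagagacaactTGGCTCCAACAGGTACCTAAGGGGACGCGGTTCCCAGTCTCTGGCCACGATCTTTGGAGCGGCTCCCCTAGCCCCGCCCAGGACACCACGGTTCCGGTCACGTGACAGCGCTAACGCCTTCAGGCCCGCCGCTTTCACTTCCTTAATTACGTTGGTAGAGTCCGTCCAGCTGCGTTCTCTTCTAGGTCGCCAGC
The windows of Zfp994 (chr17:22225565-22225864, minus strand), Zfp945 (chr17:22867085-22867384, minus strand) and Zfp946 (chr17:22423952-22424251, plus strand) are shown for a lower member, the member with the largest change and a neighbour that was not called. Capitals mark matches, on either strand, to the box CCAAT, to the GC box GGGCGG or to the ETS factor core CCGGAAG.
Zfp994: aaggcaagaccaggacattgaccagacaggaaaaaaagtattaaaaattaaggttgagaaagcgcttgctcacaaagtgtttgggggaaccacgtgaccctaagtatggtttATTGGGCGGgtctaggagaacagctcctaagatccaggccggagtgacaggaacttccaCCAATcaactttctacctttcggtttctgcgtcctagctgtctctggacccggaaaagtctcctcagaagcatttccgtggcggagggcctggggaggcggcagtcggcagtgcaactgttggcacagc
Zfp945: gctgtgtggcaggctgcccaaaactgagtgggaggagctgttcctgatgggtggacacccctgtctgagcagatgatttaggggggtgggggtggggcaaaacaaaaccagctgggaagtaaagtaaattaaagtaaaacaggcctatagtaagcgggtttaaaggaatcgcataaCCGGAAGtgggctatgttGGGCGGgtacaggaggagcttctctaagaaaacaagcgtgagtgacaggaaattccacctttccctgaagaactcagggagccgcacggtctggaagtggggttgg
Zfp946: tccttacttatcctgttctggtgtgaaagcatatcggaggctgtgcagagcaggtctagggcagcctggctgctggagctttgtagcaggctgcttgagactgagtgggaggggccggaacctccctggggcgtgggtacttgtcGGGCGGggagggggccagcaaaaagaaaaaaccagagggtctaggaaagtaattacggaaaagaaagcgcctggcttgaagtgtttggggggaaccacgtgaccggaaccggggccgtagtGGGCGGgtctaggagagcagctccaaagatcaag
The Zfp994 window holds CCAAT on both strands and 1 GGGCGG, and the ATTGG match overlaps the GGGCGG match. The Zfp945 window holds 1 GGGCGG and 1 CCGGAAG, and the Zfp946 window holds 2 GGGCGG. Both the called genes and the uncalled neighbour therefore had GGGCGG matches. The table of start regions held 76 windows for 62 of the 67 genes. CCAAT on either strand was in 67.1% of these windows and in 37.4% of all 32851 windows of the table. TATAAA was in 2.63% against 13.6%, GGGCGG in 43.4% against 35.7%, CCGGAAG in 13.2% against 8.86% and the palindromic form of the NRF1 motif in 2.63% against 4.6%. The median number of CG pairs was 10 against 7. These are matches of letters in a fixed window and are not binding sites.

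Signal was measured for most but not all members. Across all arrays the values had medians from 4.13 to 4.16, and a probe set was tested if at least 3 of the 9 arrays reached log2 4. This left 23136 probe sets, of which 71 belonged to 50 of the 67 genes. The other 45 member probe sets had means from 1.99 to 3.99 and were not tested, and 17 genes had no tested probe set. The tested set was formed by level, so it is not all members, and 2 probe sets, 1437127_at of Zfp945 and 1451477_at of Zfp991, entered only because GasKO arrays reached log2 4. Another 3, among them 1437128_a_at of Zfp945 and 1454402_at of Zfp942, reached it in WT and hGAS arrays but in no GasKO array. All 10 epithelial genes examined, among them Epcam, Cdh1, Cdx2 and Muc2, passed the filter, so epithelial signal was present. That the tissue was colon is known from the labels. All 5 T cell genes with a probe set were under log2 4. The gastrin probe set itself was at background on all arrays, with a mean of 1.96 for WT, 2.08 for GasKO and 1.95 for hGAS, so it does not check the genotype labels here. No T cell or gastrin value was tested.

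**Figure D1:**
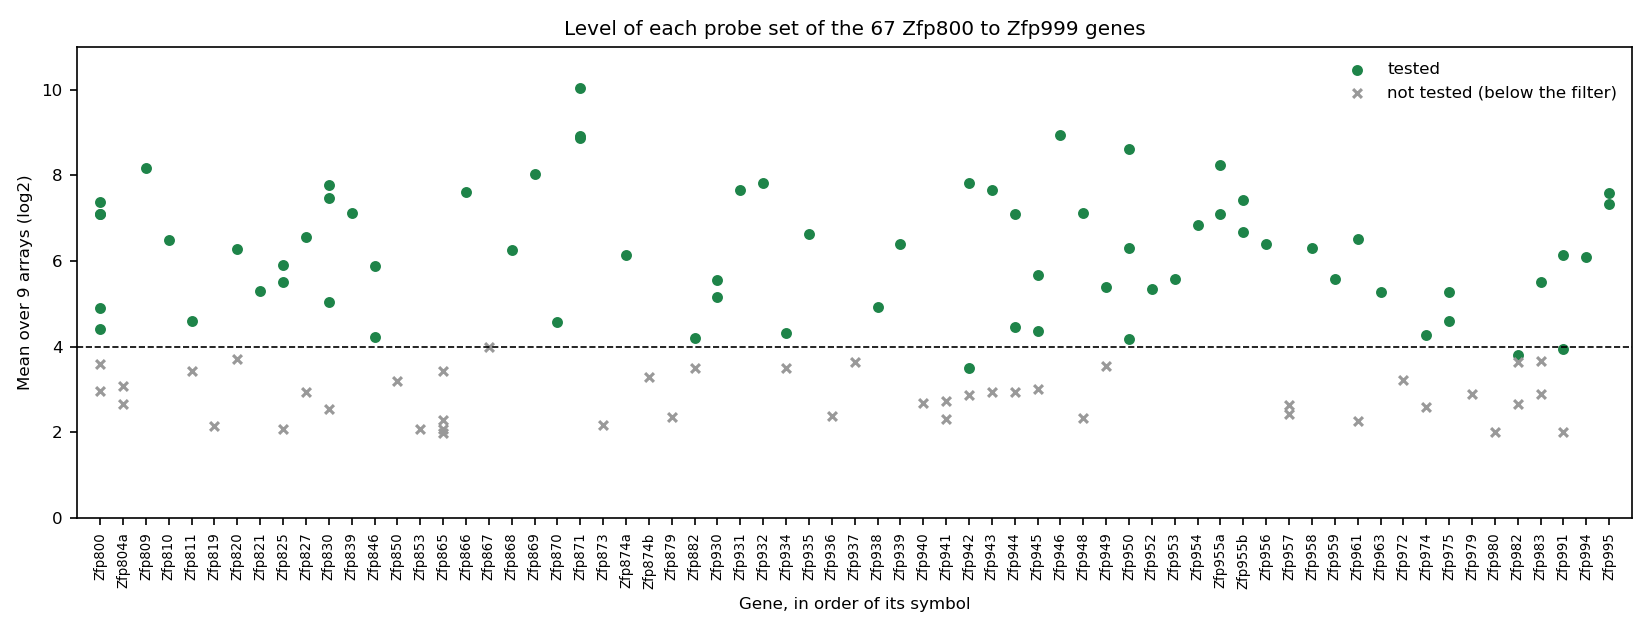
Mean log2 value over the 9 arrays (vertical axis) of each of the 116 probe sets, by gene symbol (horizontal axis); filled circles are the 71 tested probe sets, crosses the 45 not tested, and the dashed line is log2 4. Of the 67 genes, 50 have at least 1 filled circle. Heights depend on probe design and are not to be ranked between probe sets.

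Zfp800, a zinc finger gene linked to endocrine development of gut and pancreas, had 7 probe sets, more than any other member. Of the other genes, 36 had 1 probe set, 19 had 2, 9 had 3 and 2 had 4. Members whose probe sets stayed below the filter in every genotype included Zfp804a, Zfp819, Zfp853, Zfp865, Zfp879, Zfp936, Zfp957 and Zfp980. All 4 Zfp865 probe sets were there, with group means from 1.99 to 3.46. Members with tested probe sets that were called in no comparison included Zfp871, Zfp946, Zfp955a, Zfp809 and Zfp869. The Zfp871 probe set 1433784_at was at 10.05 ± 0.028 (SD, n = 3) on the WT arrays, 9.98 ± 0.11 (SD, n = 3) on the GasKO arrays and 10.10 ± 0.084 (SD, n = 3) on the hGAS arrays. Zfp809 was at 8.08 ± 0.21 (SD, n = 3) on the WT arrays, 8.16 ± 0.13 (SD, n = 3) on the GasKO arrays and 8.28 ± 0.035 (SD, n = 3) on the hGAS arrays.

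In GasKO mucosa, 4 member probe sets were higher than in WT and 9 were lower, and 2 of the 4 were those that entered the test through GasKO alone. They belonged to 10 genes, and the largest differences were at Zfp945, Zfp991, Zfp994, Zfp942 and Zfp950. Zfp945 and Zfp991 each had a probe set that fell and another that rose. The test was limma's moderated test, 2-sided, with Benjamini-Hochberg adjustment over all 23136 probe sets and a threshold of 0.05, and "called" means past it. The 13 called probe sets were 18.3% of the 71 members tested, against 11.3% of all probe sets tested. By direction, 5.63% of the members were higher against 6.03% of all, and 12.7% were lower against 5.31%. At 2-fold or more, 7 members were called, or 9.86%, against 2.34%. The 7 include the 2 that entered through GasKO alone. They also include 1437128_a_at of Zfp945 and 1454402_at of Zfp942, both among the 9 lower, which entered only through WT and hGAS arrays. These counts are therefore descriptions of the probe sets. At an unadjusted p under 0.05 there were 19, or 26.8%, against 25.7%. Of the other numbered Zfp genes, 21 of 283 tested probe sets were called, or 7.42%. The median log2 difference was -0.063 over the members and 0.0063 over all probe sets. The shares are descriptions, and no test compared the members with other genes.

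**Figure D2:**
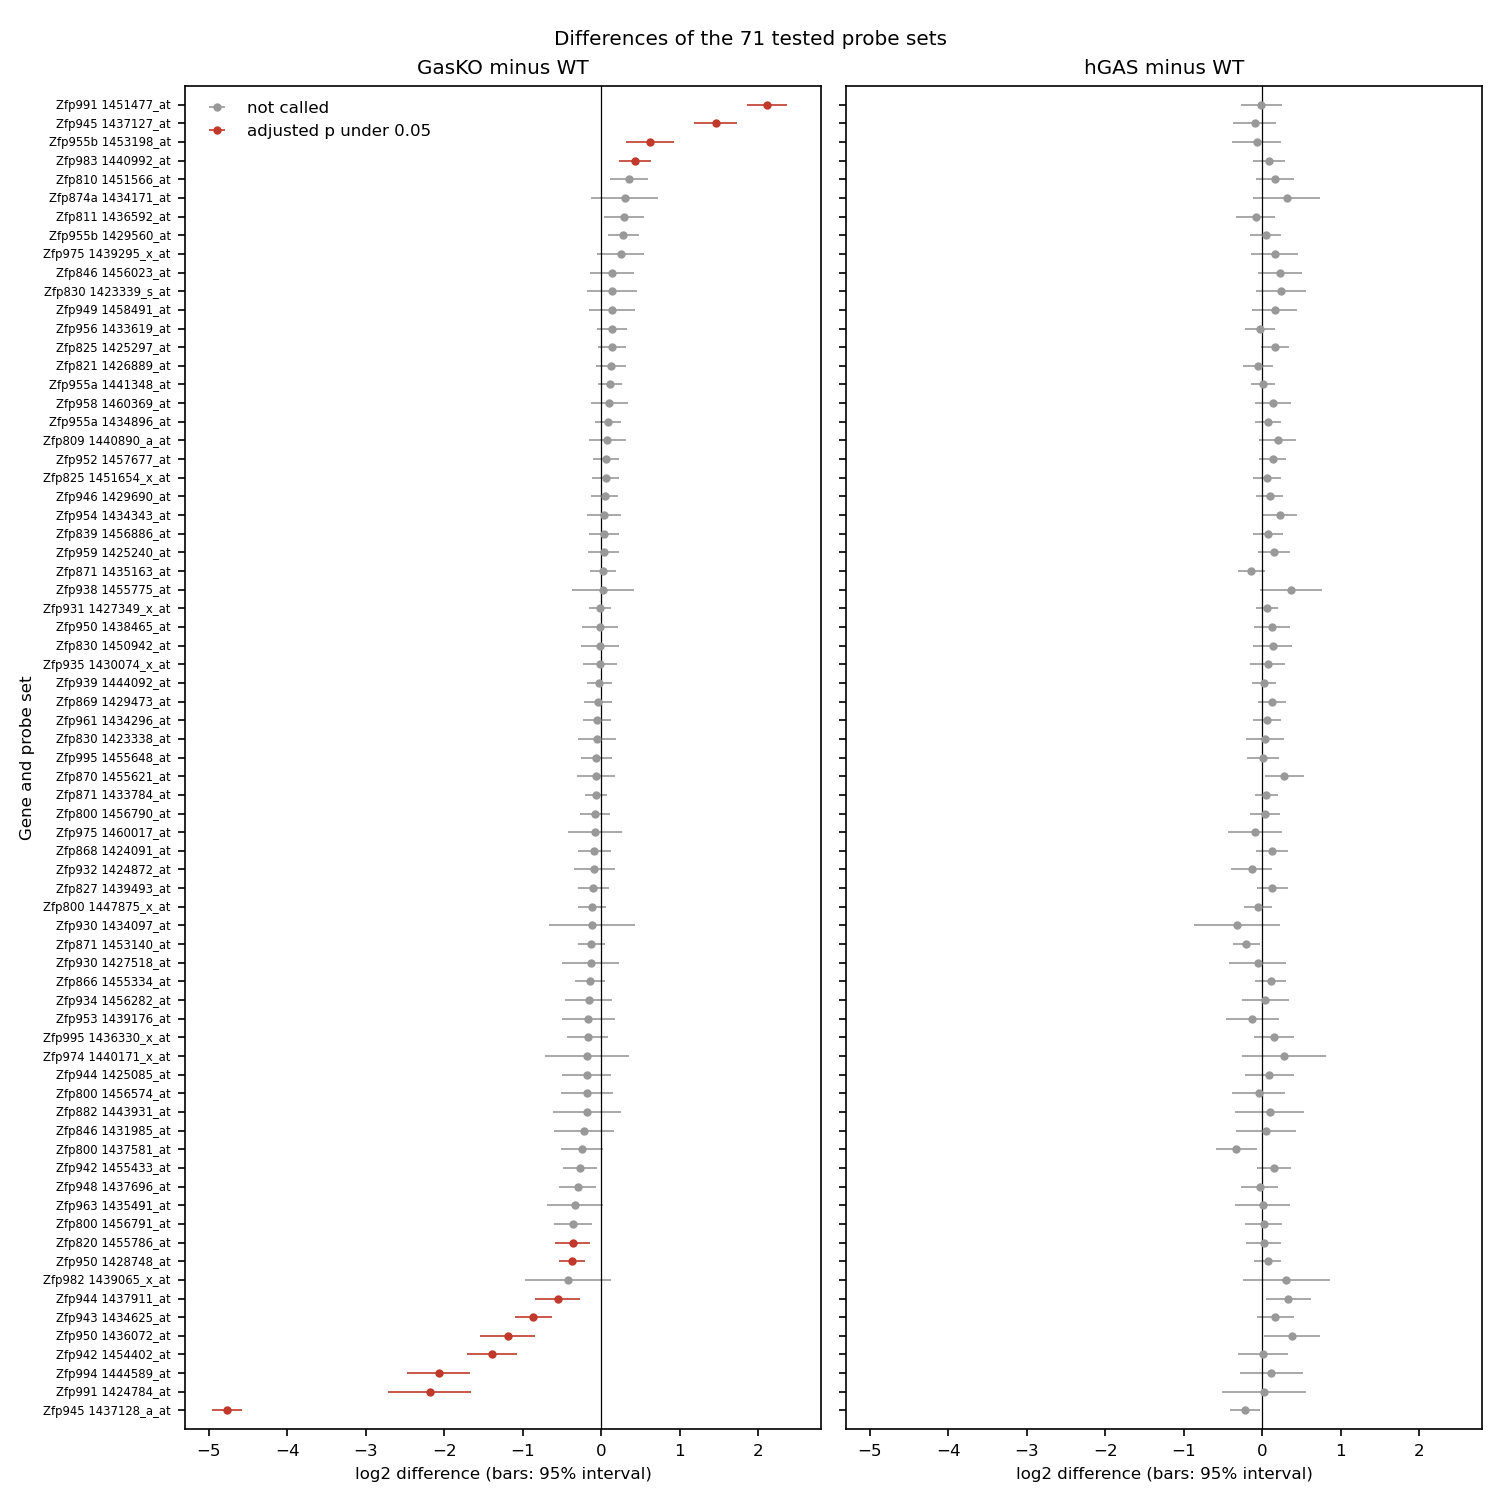
Log2 differences (horizontal axis) of the 71 tested probe sets (vertical axis) between GasKO and WT (left) and hGAS and WT (right), with 95% intervals from the limma fit; red marks adjusted p under 0.05. On the left 4 probe sets are called higher and 9 lower, from -4.77 to 2.11, and on the right none is called and all differences lie between -0.33 and 0.38.

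Zfp945 had the largest log2 difference. Its probe set 1437128_a_at read 7.26, 7.45 and 7.32 in the WT arrays, 2.51, 2.69 and 2.52 in the GasKO arrays and 7.19, 7.07 and 7.10 in the hGAS arrays. The GasKO arrays were far below all others and within the range of probe sets too low to test. The difference between GasKO and WT was -4.77 (SE 0.086, limma adjusted p = 1.6e-09). Since the GasKO arrays were at background, the ratio of the 2 signals has no exact value. This probe set passed the filter only through WT and hGAS arrays, so its p alone is no support. A second Zfp945 probe set, 1437127_at, went the other way. It read 3.93, 3.92 and 3.88 in WT, 5.36, 5.57 and 5.18 in GasKO and 3.95, 3.60 and 3.90 in hGAS. All 3 GasKO arrays were above the other 6, a rise of 1.46 (SE 0.12, limma adjusted p = 5.5e-05). It was below the filter level on those 6 arrays and was tested only because GasKO was high, so its p alone is no support. With no filter on level the adjusted p was 1.7e-04. The remaining probe set, 1441792_at, was not tested and was between 2.91 and 3.55 on all arrays, its highest value being on GasKO array 2.

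Zfp991 showed the same kind of split. Probe set 1424784_at read 6.77, 6.96 and 6.85 in WT, 4.51, 5.32 and 4.19 in GasKO and 7.00, 6.88 and 6.77 in hGAS. The GasKO arrays were all lower and more spread out, and the difference from WT was -2.19 (SE 0.23, limma adjusted p = 2.9e-04). Probe set 1451477_at read 3.26, 3.26 and 3.22 in WT, 5.53, 5.47 and 5.06 in GasKO and 3.26, 3.22 and 3.22 in hGAS. It was below the filter level on all 6 arrays that were not GasKO and rose by 2.11 in GasKO (SE 0.12, limma adjusted p = 3.2e-06). It too was tested only because GasKO was high, and with no filter the adjusted p was 1.1e-05. The remaining probe set, 1440518_at, stayed between 2.00 and 2.03 on all 9 arrays and was not tested.

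Within these genes the difference between probe sets was itself tested, as the value of one probe set minus that of the gene's probe set with the highest mean, array by array. For Zfp945 the rise of 1437127_at relative to 1437128_a_at was 6.23 (SE 0.094, limma adjusted p = 1.3e-10). For Zfp991 the rise of 1451477_at relative to 1424784_at was 4.30 (SE 0.19, limma adjusted p = 4.3e-07). The annotation lists the same source sequence for both probe sets of each pair. The letter before "_at" marks how a probe set was designed, and "_a_at" stands for one that covers several transcripts of a gene. Probe sets ending in "_x_at" or "_s_at" can match other genes as well. They made up 8 and 1 of the 71 tested members, and the called members were all of the other kinds. Both pairs were tested only because the rising probe set passed the filter through GasKO, so the pair values are a description of these probe sets.

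**Figure D3:**
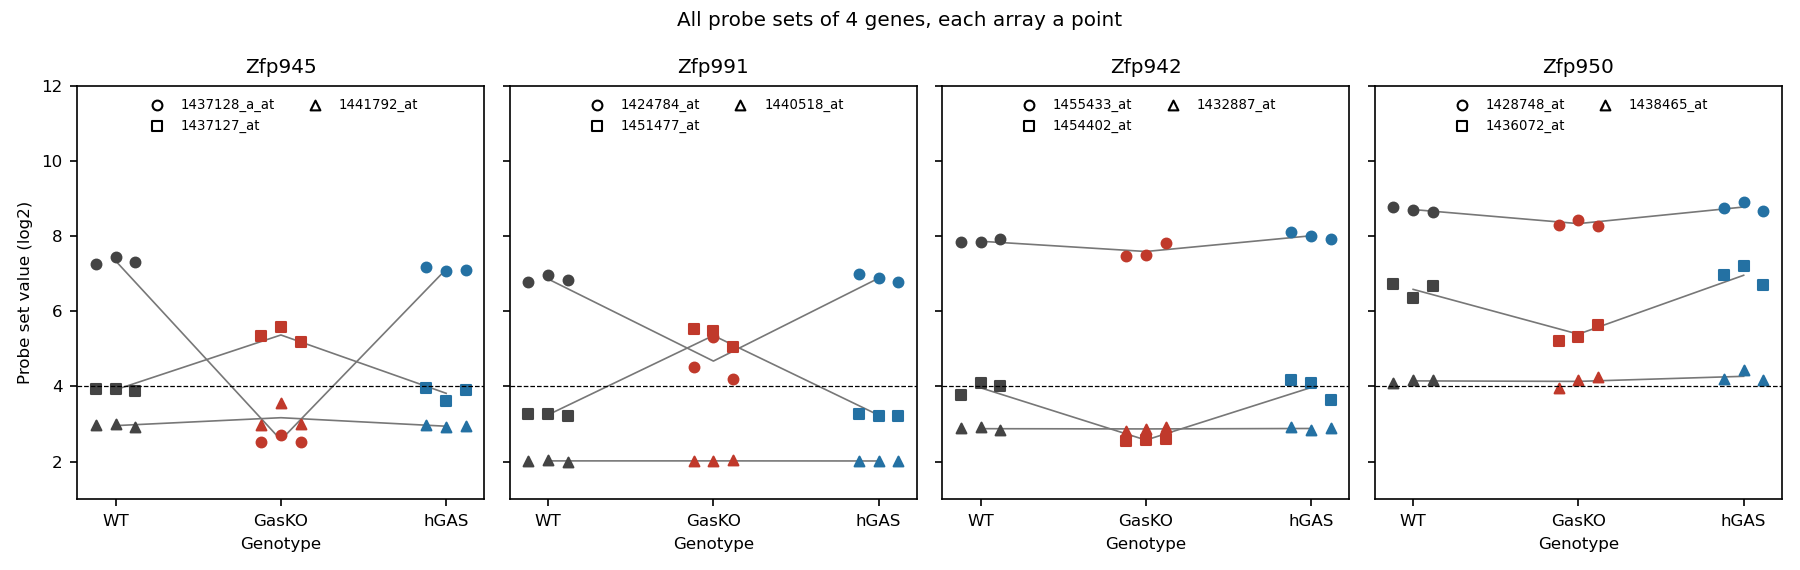
Log2 values (vertical axis) on each of the 9 arrays, by genotype (horizontal axis), of every probe set of Zfp945, Zfp991, Zfp942 and Zfp950; each point is an array, the symbol shape gives the probe set, grey lines join group means and the dashed line is log2 4. In the Zfp945 and Zfp991 panels one probe set falls and another rises in GasKO, and in all panels hGAS lies near WT.

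Zfp942 and Zfp950 had probe sets that fell by unequal amounts. The Zfp942 probe set 1454402_at read 3.77, 4.10 and 4.02 in WT, 2.56, 2.56 and 2.59 in GasKO and 4.18, 4.10 and 3.64 in hGAS. It lay near the filter level in WT and hGAS and below it in GasKO, a difference of -1.39 (SE 0.14, limma adjusted p = 2.1e-04). This probe set passed the filter only through WT and hGAS arrays, so its p alone is no support. The Zfp942 probe set 1455433_at read 7.84, 7.83 and 7.92 in WT, 7.47, 7.50 and 7.81 in GasKO and 8.10, 8.01 and 7.93 in hGAS. Its GasKO arrays were also all below the WT arrays, but the difference of -0.27 was not called (limma adjusted p = 0.11). The changes of these probe sets differed by -1.12 (SE 0.14, limma adjusted p = 6.6e-04). The pair was tested only because 1454402_at passed through WT and hGAS, so this value is a description of these probe sets. The last Zfp942 probe set, 1432887_at, was between 2.82 and 2.91 throughout and was not tested.

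For Zfp950, probe set 1436072_at read 6.72, 6.36 and 6.68 in WT, 5.22, 5.32 and 5.63 in GasKO and 6.98, 7.20 and 6.70 in hGAS. The groups GasKO and WT did not overlap, and the difference was -1.19 (SE 0.16, limma adjusted p = 0.0011). Probe set 1428748_at read 8.78, 8.69 and 8.66 in WT, 8.29, 8.44 and 8.28 in GasKO and 8.75, 8.90 and 8.68 in hGAS. It fell less, by 0.37 on the log2 scale (SE 0.075, limma adjusted p = 0.011), again with GasKO below every other array. The fall of the first relative to the second was -0.82 (SE 0.14, limma adjusted p = 0.0067). The remaining probe set, 1438465_at, lay between 3.95 and 4.43, overlapped between the groups and changed by -0.013 with no call.

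Zfp994, Zfp943 and Zfp944 were lower in GasKO as well. Zfp994, with 1 probe set, read 6.95, 6.77 and 6.54 in WT, 4.32, 4.72 and 5.01 in GasKO and 6.96, 6.99 and 6.67 in hGAS. All GasKO arrays were below all others, and the difference was -2.07 (SE 0.18, limma adjusted p = 6.4e-05). Zfp943 (1434625_at) read 8.03, 7.82 and 7.85 in WT, 7.09, 7.02 and 6.98 in GasKO and 8.18, 8.19 and 7.82 in hGAS. Its GasKO arrays were the 3 lowest, and the difference was -0.87 (SE 0.11, limma adjusted p = 6.7e-04). The untested Zfp943 probe set 1430727_at was between 2.89 and 2.98 on all arrays.

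The Zfp944 probe set 1437911_at read 7.10, 7.14 and 7.26 in WT, 6.38, 6.56 and 6.90 in GasKO and 7.63, 7.45 and 7.41 in hGAS. The 3 groups did not overlap, and GasKO was lower than WT by -0.55 (SE 0.13, limma adjusted p = 0.022). This call was lost without WT array 2 or 3 or without GasKO array 1 or 2, with an adjusted p of up to 0.070. The Zfp944 probe set 1425085_at read 4.48, 4.52 and 4.48 in WT and 4.48, 4.01 and 4.45 in GasKO, which overlapped and were not called. A further probe set, 1437881_at, was between 2.91 and 2.99 throughout.

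Smaller differences were called at Zfp955b, Zfp983 and Zfp820. The Zfp955b probe set 1453198_at read 6.60, 6.29 and 6.60 in WT, 7.31, 7.05 and 6.99 in GasKO and 6.60, 6.18 and 6.50 in hGAS. It was higher in GasKO by 0.62 (SE 0.14, limma adjusted p = 0.019), and the call was lost without WT array 2 (adjusted p = 0.066) or GasKO array 1 (adjusted p = 0.076). The other Zfp955b probe set, 1429560_at, read 7.41, 7.32 and 7.24 in WT and 7.58, 7.75 and 7.47 in GasKO, also without overlap, but was not called. Zfp983 (1440992_at) read 5.49, 5.23 and 5.30 in WT, 5.73, 5.76 and 5.81 in GasKO and 5.49, 5.32 and 5.45 in hGAS. GasKO was higher by 0.43 (SE 0.089, limma adjusted p = 0.014), and the adjusted p was 0.052 without GasKO array 3. Zfp820 (1455786_at) read 6.57, 6.42 and 6.20 in WT, 6.02, 6.10 and 5.98 in GasKO and 6.45, 6.47 and 6.32 in hGAS. GasKO was lower by -0.37 (SE 0.10, limma adjusted p = 0.048), and this call was lost in 8 of the 9 fits that left out 1 array, all but the one without WT array 3, with an adjusted p of up to 0.14. The other 9 of the 13 calls remained in all 9 of those fits. Those fits kept the filter of all 9 arrays, so they did not retest how a probe set entered.

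The other 58 tested member probe sets were not called between GasKO and WT. In all, 25 of 71 members had GasKO and WT arrays that did not overlap, or 35.2%, against 30.8% of all probe sets. Uncalled members with larger differences included Zfp982 (1439065_x_at, -0.43, limma adjusted p = 0.31), Zfp810 (0.36, limma adjusted p = 0.072) and Zfp963 (-0.33, limma adjusted p = 0.22). Among the 45 untested probe sets, the means of the 3 groups spanned more than 0.5 in 2. One was 1443108_at of Zfp800, at 4.05, 3.65 and 4.19 in hGAS against 3.31 to 3.52 on the other 6 arrays. The other was 1453668_at of Zfp983, where GasKO array 1 read 3.93 and the other 8 arrays between 2.58 and 2.87. They were below the filter. With no filter, 1443108_at was called between hGAS and GasKO, higher in hGAS by 0.55 (limma adjusted p = 0.037).

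Of the 71 tested members, 15 genes had more than 1 probe set, giving 21 pairs, 8 of them drawn from the same source sequence. The changes of 4 pairs differed between GasKO and WT, those of Zfp945, Zfp991, Zfp942 and Zfp950, against 6.39% of the 8548 pairs on the array. Pairs with both probe sets called in opposite directions numbered 2 of 21, against 0.281% of all pairs, and the 1 pair called in the same direction, that of Zfp950, compares with 3.79%. The opposite pairs, of Zfp945 and Zfp991, were tested only because 1 probe set of each passed the filter through GasKO. The Zfp942 pair was tested only because 1454402_at passed through WT and hGAS. These counts are therefore descriptions of the probe sets. The other 17 pairs differed by at most 0.37 in their log2 changes. The 3 Zfp871 probe sets changed by -0.068, -0.13 and 0.023, the 3 tested Zfp830 probe sets by -0.051, -0.018 and 0.14, and the Zfp955a probe sets by 0.084 and 0.11, none called. The 5 tested Zfp800 probe sets all changed downward, by -0.079 to -0.36, without a call.

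**Figure D4:**
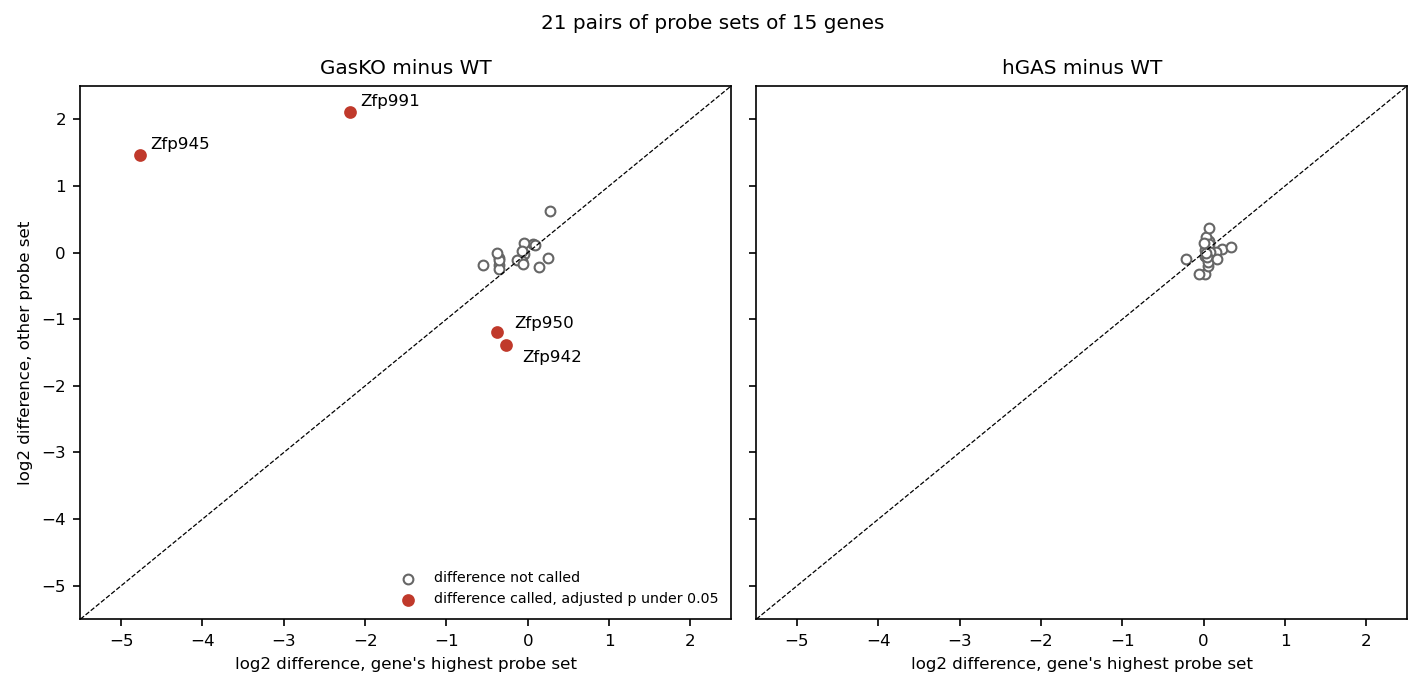
Log2 change of each gene's probe set with the highest mean (horizontal axis) against that of another tested probe set of the gene (vertical axis), for 21 pairs of 15 genes, in GasKO against WT (left) and hGAS against WT (right); the dashed line marks equal changes and red marks pairs whose changes differ at adjusted p under 0.05. On the left Zfp945 and Zfp991 lie in the quadrant of opposite directions, and on the right all 21 pairs lie near the origin.

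Of the 13 called probe sets, 8 came from one stretch of neighbouring genes. In the order of protein-coding genes, 42 of the 67 members fell into 12 stretches in which neighbouring members were at most 10 genes apart, and 25 lay alone. The longest stretch held 10 members, in the order Zfp948, Zfp983, Zfp820, Zfp995, Zfp942, Zfp943, Zfp994, Zfp944, Zfp946 and Zfp945, within 19 genes on chromosome 17. Of its 14 tested member probe sets 8 were called between GasKO and WT, or 57.1%. The share was 8.77% for members elsewhere (5 of 57) and 11.3% for all probe sets tested. Among the 8, 1437127_at of Zfp945 entered the test only through GasKO arrays. The Zfp945 probe set 1437128_a_at and the Zfp942 probe set 1454402_at entered only through WT and hGAS arrays. The count is therefore a description of these probe sets. The 8 called probe sets were from 7 of its 10 genes, and limits of 5 or 20 genes between members gave the same stretch. Of the 8, 5 remained called whichever array was left out. These 5 include both Zfp945 probe sets and 1454402_at of Zfp942. The fits without 1 array kept the filter of all arrays, so they did not retest how a probe set entered. Zfp946, Zfp948 and Zfp995 in the same stretch were not called, with changes of 0.046, -0.30 and, for the 2 probe sets of Zfp995, -0.063 and -0.18.

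Genes around these members were called too. Inside the stretch 3 other genes were tested. Zfp758 was lower in GasKO by -0.81 (limma adjusted p = 0.0012), Zfp760 was higher by 0.47 (limma adjusted p = 0.036) and Zfp229 was not called. Within the 20 genes after the stretch, 5 of 11 probe sets were called, with Zfp40 at -1.53, Zfp213 at -1.04 and Paqr4 at -0.95 lower and both Hcfc1r1 probe sets higher, by 0.26 and 0.19. The called Zfp40 probe set averaged 4.92 in WT and 3.39 in GasKO, and it passed the filter only through WT and hGAS arrays. Its call is therefore a description of this probe set. The other Zfp40 probe set, at -0.46, was not called (limma adjusted p = 0.17). Within the 20 genes before it, 3 of 13 were called, all lower: Zfp52 at -1.02, Zfp160 at -0.37 and Ppp2r1a at -0.25. The other Zfp160 probe set, at 0.12, was not called (limma adjusted p = 0.46). The other Ppp2r1a probe sets, from -0.17 to -0.073, were not called either. Elsewhere on the chromosome 152 of 847 tested probe sets were called, or 17.9%.

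**Figure D5:**
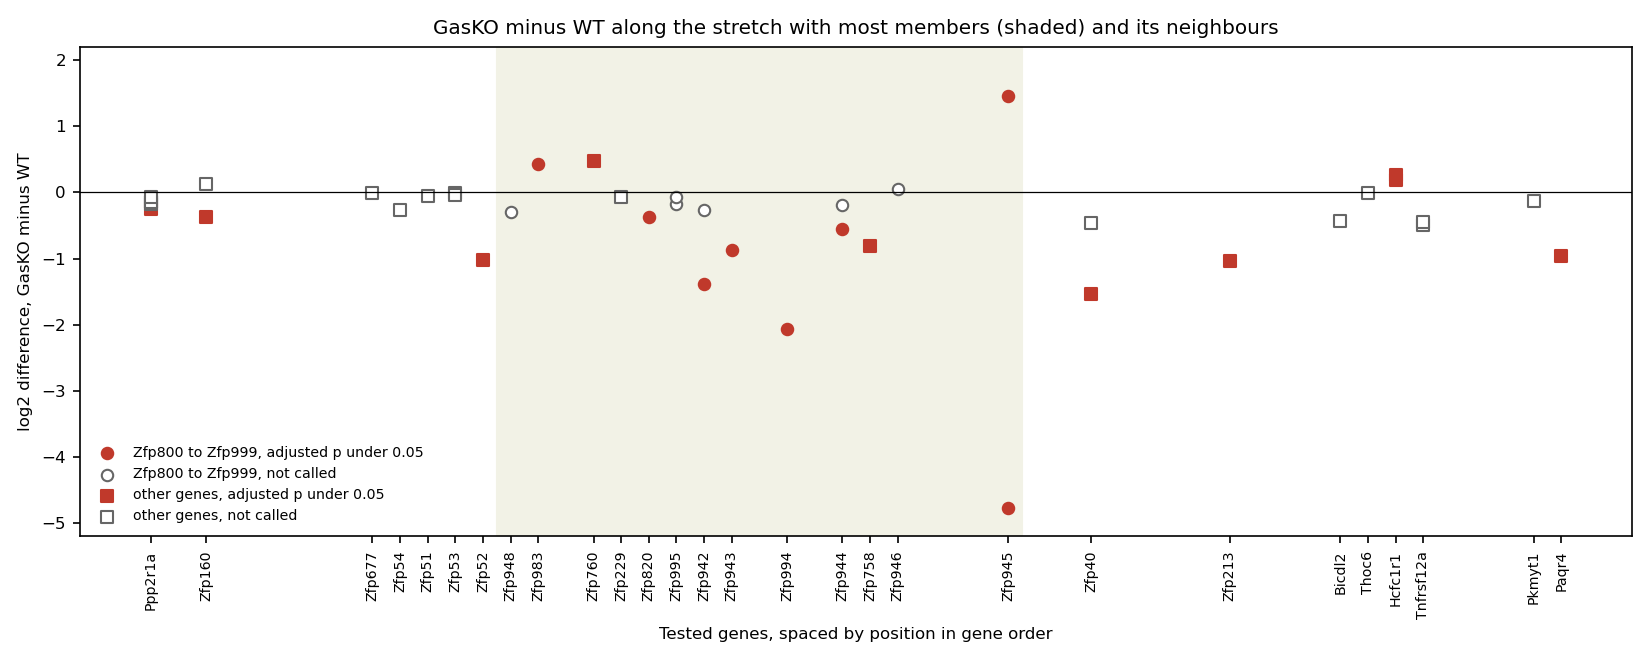
Log2 difference between GasKO and WT (vertical axis) of each tested probe set along the stretch of 10 members (shaded) and the 20 genes on each side, spaced by position in gene order (horizontal axis); circles are members, squares other genes, and filled red symbols have adjusted p under 0.05. Called genes lie in the stretch and on both sides of it, with uncalled genes between some of them.

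In another stretch, of 6 members, Zfp871, Zfp811, Zfp870, Zfp952, Zfp955a and Zfp955b, 1 of 10 tested probe sets was called. A stretch of Zfp980, Zfp991, Zfp982 and Zfp979 had 2 of 3 called, both from Zfp991. The Zfp991 probe set 1451477_at entered the test only through GasKO arrays. Over all probe sets tested, 11.3% were called between GasKO and WT. The gastrin gene lay elsewhere, and the member nearest to it was 324 protein-coding genes away.

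In hGAS mucosa none of the 71 tested members was called against WT by limma, with 7 at an unadjusted p under 0.05. The background was 0.761% of all probe sets called and 13.5% at an unadjusted p under 0.05, against 9.86% of the members. The smallest adjusted p over the members was 0.26, for 1437581_at of Zfp800, which read 4.94, 5.06 and 5.29 in WT and 4.55, 4.88 and 4.87 in hGAS. The log2 differences ran from -0.33 to 0.38, and every 95% interval lay between -0.87 and 0.86, so that a 2-fold difference lay outside the interval of each of them. For Zfp945 1437128_a_at the difference was -0.22 and for Zfp994 0.12. Groups did not overlap for 11 of 71 members, against 17% of all probe sets. None of the 21 pairs differed between hGAS and WT by limma, with 2 at an unadjusted p under 0.05 and a largest difference of 0.35, against 0.0234% of all pairs called. No pair on the array was called in opposite directions here (0%), and 0 of 21 member pairs in the same direction, against 0.175%.

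Between hGAS and GasKO, 11 member probe sets were higher in hGAS and 4 lower, from 11 genes. This was 15 of 71, or 21.1%, against 14.9% of all probe sets, with 15.5% of the members higher against 7.09% and 5.63% lower against 7.8%. At 2-fold or more, 8 members were called, or 11.3%, against 2.77%, and the groups did not overlap for 24 of 71, or 33.8%, against 34.4%. This comparison shares the GasKO arrays with that of GasKO and WT, so its calls are not separate evidence. Of the 4 lower probe sets, 2 were those that entered the test through GasKO alone. Of the 11 higher, 1437128_a_at of Zfp945 and 1454402_at of Zfp942 entered only through WT and hGAS arrays. All of these were among the 8 at 2-fold or more, so the counts are descriptions of these probe sets. All 13 probe sets called between GasKO and WT were called again. The other 2 were 1455433_at of Zfp942, higher in hGAS by 0.42 (limma adjusted p = 0.019), and 1456791_at of Zfp800, higher by 0.37 (limma adjusted p = 0.045). The Zfp942 call was lost without GasKO array 1, GasKO array 2 or hGAS array 1, with an adjusted p of up to 0.071. The Zfp800 probe set read 7.37, 7.61 and 7.47 in WT, 7.28, 6.90 and 7.20 in GasKO and 7.58, 7.45 and 7.46 in hGAS. Its call was lost in 7 of the 9 fits without 1 array, all but those without WT array 2 or GasKO array 1, with an adjusted p of up to 0.14.

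Zfp945 1437128_a_at was higher in hGAS than in GasKO by 4.55 and its 1437127_at was lower by -1.55. Zfp994 was higher by 2.19, Zfp950 1436072_at by 1.57, Zfp943 by 1.03 and Zfp944 1437911_at by 0.88, with limma adjusted p from 2.1e-09 to 0.0016. The smallest of these is that of 1437128_a_at, which passed the filter only through WT and hGAS arrays. Zfp945 1437127_at passed it only through GasKO arrays, so the p-values of these 2 probe sets alone are no support. Zfp991 1424784_at was higher by 2.21 and its 1451477_at lower by -2.12. Zfp983 was lower by -0.35 and Zfp820 higher by 0.38. The Zfp983 call was lost without any one of the GasKO or hGAS arrays, and the Zfp820 call without any GasKO array or without hGAS array 1 or 2, with an adjusted p of up to 0.11. Of the 21 pairs, 5 differed, against 6.46% of all pairs. Both probe sets were called in opposite directions in 2 pairs, against 0.351%, and in the same direction in 2, against 6.15%. The 2 opposite pairs, of Zfp945 and Zfp991, were tested only because 1 probe set of each passed the filter through GasKO. The Zfp942 pair, called in the same direction and among those that differed, was tested only because 1454402_at passed through WT and hGAS. These counts are therefore descriptions of these probe sets. The 5 pairs that differed were of the same 4 genes and Zfp944, whose 1425085_at changed by -0.61 relative to 1437911_at (limma adjusted p = 0.040).

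The partners of KRAB zinc finger proteins were examined as a list. Of a list of 29 genes, 28 had a probe set and 25 were tested, with 1 probe set per gene, its brightest. Between GasKO and WT 1 rose and 1 fell, and the median log2 difference was -0.012. This is 2 of 25 genes, against 11.3% of all probe sets, and 1 of 25 between hGAS and GasKO compares with 14.9%. Rbbp4, a histone-binding subunit of repressor complexes, was higher by 0.19 (limma adjusted p = 0.032), and Uhrf1, which maintains DNA methylation, was lower by -0.48 (limma adjusted p = 0.014). Trim28, the corepressor, was at 10.23 ± 0.11 (SD, n = 3) on the WT arrays, 10.23 ± 0.074 (SD, n = 3) on the GasKO arrays and 10.18 ± 0.048 (SD, n = 3) on the hGAS arrays, and was not called. Setdb1 (-0.14), Atf7ip (0.051) and Dnmt1 (-0.027) were not called either. None of the 25 was called between hGAS and WT by limma, with 2 at an unadjusted p under 0.05. Between hGAS and GasKO Daxx, a histone chaperone, was the 1 gene called, lower in hGAS by -0.41 (limma adjusted p = 0.026). Zfp57, the KRAB zinc finger protein of imprinted genes, was below log2 4 in all groups.

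Cell type markers differed between the genotypes as well. Of 5 tested B cell genes 3 were called higher in GasKO than in WT, of 5 plasma cell genes 4, of 6 myeloid genes 3 and of 5 fibroblast genes 2, and none was called lower. The uncalled fibroblast genes went both ways, with Col1a1 at -0.34, Col1a2 at -0.13 and Lum at 0.29. No gene was called among 5 smooth muscle, 4 enteric neuron and 3 adipocyte genes, with median log2 differences of -0.11, 0.14 and 1.20. Over all probe sets 6.03% were higher. Of 10 epithelial genes 1 was higher, Epcam, by 0.35 (limma adjusted p = 4.2e-04), and none was lower. The summed linear signal of the plasma cell list ran from 13940 to 22035 in WT, 33659 to 37158 in GasKO and 23344 to 30318 in hGAS. That of the B cell list ran from 235 to 373 in WT, 420 to 709 in GasKO and 77.4 to 122 in hGAS, and that of the myeloid list from 3828 to 4032, 5036 to 5599 and 3099 to 4023. Between hGAS and WT 2 of 5 B cell genes were called lower, Cd79a by -1.76 and Fcmr by -2.30, against 0.385% of all probe sets. Of the epithelial genes Car1 was called higher by 0.47, against 0.376%, and no gene of the other lists was called. In hGAS against GasKO all 5 B cell genes, 4 of 6 myeloid and 2 of 5 fibroblast genes were called lower, against 7.8%. The uncalled fibroblast genes went the other way, with Col1a1 at 0.35, Col1a2 at 0.15 and Lum at 0.14. The median over the fibroblast list was 0.14. The part of these cells in the member changes was not tested.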

How the data were processed

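Affymetrix expression arrays of colonic mucosa were used, 3 for each of 3 genotypes. The values are deposited on the log2 scale and were made with GCRMA, per the submitters' processing notes, which give no version. GCRMA corrects background from probe sequence, which sets the level of dim probe sets and so the size of changes there. Genes were named from the platform annotation. Of the probe sets, 34958 had 1 gene, 932 had several and 9160 had none, and the 64 controls were left out. Of the probe sets with several genes, 9 include a member's symbol and name no gene here. A pseudogene symbol with the suffix -ps was not counted as a member. Gene order and start regions came from RefSeq tables of assembly GRCm38.p6, which served for names, order and the printed sequences only. The files name no genome build.

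Probe sets reaching log2 4 on at least 3 arrays were fitted with limma 3.58.1 (R 4.3.3), genotype only, with a mean-variance trend, all 9 arrays sharing the spread, and 3 contrasts, Benjamini-Hochberg adjusted over all 23136 probe sets. Pairs of probe sets were fitted the same way on per-array differences. The scripts were tested on simulated data. The members and lists were chosen with earlier results of these data known. All members may be named; per-array values are given for called members with the largest changes, their genes and genes with a called pair.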

Additional observations from a re-analysis of the deposited data

How the results depend on the processing

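All recomputed values of single called probe sets (528) kept their direction, 483 stayed past the adjusted p of 0.05 and 45 did not. Counts of called members moved by over 1.5 times under these settings. With the threshold at an adjusted p of 0.01, 8 were called between GasKO and WT, with 1 probe set per gene 8, and with the probe sets of a gene averaged 6, and 9 between hGAS and GasKO. The last 3 counts are of genes, so fewer units were tested. Pairs that differed numbered 8 (GasKO and WT) and 9 (hGAS and GasKO) with no filter, which adds pairs, and 3 (hGAS and GasKO) with log2 5 as the filter, which removes pairs. With no filter, 12 (GasKO and WT), 0 (hGAS and WT) and 13 (hGAS and GasKO) of 116 members were called, against 4.46%, 0.142% and 5.68% of all probe sets. The 13 include 1 probe set below the filter, 1443108_at of Zfp800. Leaving out each array in turn gave 10 to 13, 0 to 0 and 11 to 15 called members, and 4 to 5, 0 to 0 and 4 to 7 pairs, in the same order of comparisons. Those fits kept the filter of all arrays. Samples with the same replicate number correlated between 0.010 and 0.19 in their deviations from the group means, so the numbers were not taken to pair samples. With the replicate block, 14, 0 and 15 members and 4, 0 and 6 pairs were called. Values near or below log2 4 lie at the background of the array, so changes there are bounded by it. 3 arrays per group limit the precision. The other scalings, fits and filters listed left the counts within 1.5 times.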
